A study of Mus musculus with 22 samples.

Results

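In E14 mouse embryonic stem cells (ESC), 1701 of the 7850 peaks of the chromatin protein PCGF6 (21.7%) overlapped neither a RING1B peak of the same cells nor a PCGF6 peak of small intestinal crypts, and these ESC-only peaks without RING1B are described here. They were chosen from the peak lists themselves. A peak belonged when not 1 bp of it was covered by a peak of the ESC RING1B list or of the PCGF6 list of AhCre wild-type (WT) crypts. Absence from those lists is therefore what defined the peaks and is no finding. The other ESC PCGF6 peaks fell into 1994 ESC-only peaks with RING1B, 2561 peaks shared with the crypt without RING1B and 1594 shared with the crypt with RING1B.

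The study profiled chromatin by ChIP-seq in ESC and in crypts with and without Pcgf6. The ESC were WT and gave 1 PCGF6 and 1 RING1B list. Crypts of the small intestine came from C57BL/6 mice, labelled WT or Pcgf6 knockout (KO), of 2 Cre lines. AhCre crypts gave WT and KO lists of PCGF6, RING1B and ubiquitinated histone H2A (H2AK119ub1). Villin crypts gave WT and KO lists of RING1B, H2AK119ub1, CTCF and RAD21. The series' design text, written for RNA samples, gives male mice of 8 to 12 weeks, taken 7 days after tamoxifen (Villin) or BNF (AhCre). H2AK119ub1 chromatin of both lines had 5% Drosophila S2 chromatin added. AhCre is driven by the inducible Cyp1a1 promoter and Villin-Cre by an intestinal epithelial promoter, and whether the WT mice carried Cre or a floxed allele was not given in the sources used here. Each list came from 1 library, so no difference below has a replicate check, and no test was made between groups. Shares are given with exact (Clopper-Pearson) 95% intervals, which cover counting error only. Read depth behind the peaks is unknown, since no counts accompany them, and a site without a listed peak may still hold signal too weak to be called.

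PCGF6 is the RING finger protein that defines the variant Polycomb repressive complex PRC1.6. In that complex it pairs with RING1A or RING1B, the enzymes that place ubiquitin on H2A, and with the DNA-binding pairs MGA and MAX, which read the E-box CACGTG, and E2F6 and DP1, which read E2F motifs. In ESC the complex is known for holding germ cell genes silent. CTCF is the insulator protein that stops the cohesin ring, of which RAD21 is a subunit.

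The E-box and the E2F motif each occur in some promoters under these peaks, and 5 that hold one or both were picked for it. The windows run from 250 bases before to 50 bases after a listed start site, from RefSeq annotation of GRCm38.p6 (mm10). They lie under ESC-only peaks without RING1B. They were chosen for their motifs, and also for genes tied to germ cells, after their values were seen. Windows under such peaks at St7, with the E-box, and at Gm9631, with the E2F motif, are not printed. The shares over all promoters under these peaks follow. Capitals mark CACGTG or the E2F motif (TTCCCGC, or GCGGGAA on the other strand).
Rbmxl2: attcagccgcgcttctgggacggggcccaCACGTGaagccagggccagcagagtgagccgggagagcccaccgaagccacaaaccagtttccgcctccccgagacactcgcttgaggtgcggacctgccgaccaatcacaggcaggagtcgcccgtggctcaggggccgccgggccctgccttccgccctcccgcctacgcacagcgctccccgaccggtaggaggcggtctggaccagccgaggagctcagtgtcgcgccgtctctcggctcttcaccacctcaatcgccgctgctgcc
Tdrd9: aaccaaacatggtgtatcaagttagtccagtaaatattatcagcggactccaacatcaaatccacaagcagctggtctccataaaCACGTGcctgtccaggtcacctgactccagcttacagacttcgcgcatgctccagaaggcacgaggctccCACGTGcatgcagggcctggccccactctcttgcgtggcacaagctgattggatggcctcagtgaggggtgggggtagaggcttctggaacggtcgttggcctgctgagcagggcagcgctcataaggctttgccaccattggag
Patl2: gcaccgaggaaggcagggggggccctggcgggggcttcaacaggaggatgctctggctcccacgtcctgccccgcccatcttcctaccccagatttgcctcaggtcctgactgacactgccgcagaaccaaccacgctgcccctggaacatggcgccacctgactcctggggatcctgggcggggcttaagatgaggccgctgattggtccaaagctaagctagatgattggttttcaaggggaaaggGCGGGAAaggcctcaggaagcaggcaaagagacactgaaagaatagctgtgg
Rpl10l: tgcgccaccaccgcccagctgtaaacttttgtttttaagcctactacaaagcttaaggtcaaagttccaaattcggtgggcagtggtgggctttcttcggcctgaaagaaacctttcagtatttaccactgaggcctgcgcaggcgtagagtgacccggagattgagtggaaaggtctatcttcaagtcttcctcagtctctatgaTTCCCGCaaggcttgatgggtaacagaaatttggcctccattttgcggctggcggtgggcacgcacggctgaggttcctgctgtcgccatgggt
Rec114: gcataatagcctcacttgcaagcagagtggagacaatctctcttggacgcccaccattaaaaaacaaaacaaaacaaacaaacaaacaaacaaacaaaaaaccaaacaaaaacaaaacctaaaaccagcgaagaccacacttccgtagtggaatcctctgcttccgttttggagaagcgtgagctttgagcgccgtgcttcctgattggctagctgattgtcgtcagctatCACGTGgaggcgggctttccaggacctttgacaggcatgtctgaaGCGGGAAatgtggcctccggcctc
Rbmxl2 encodes a testis RNA-binding protein, and its window (chr7:107209195-107209494, plus strand) lay under a peak with a score of 73.5. The score is the deposited −log10 value of the peak caller, of a p or a q. Tdrd9 encodes a helicase of the piRNA pathway, and its window (chr12:111971309-111971608, plus strand; peak score 46.2) holds the E-box at 2 places, 165 and 95 bases before the start. Patl2, an RNA-binding protein of oocytes (chr2:122186140-122186439, minus strand; peak score 88.3), holds GCGGGAA across its start site. Rpl10l is an autosomal copy of the ribosomal protein gene Rpl10 that is used in spermatogenesis (chr12:66284352-66284651, minus strand; peak score 76.1), and its E2F motif begins 44 bases before the start. Rec114, needed for meiotic DNA breaks (chr9:58741510-58741809, minus strand; peak score 34.4), holds both motifs, the E-box 19 bases before and GCGGGAA 26 bases after the start.

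Over all ESC-only peaks without RING1B, 295 listed protein-coding starts of 271 genes had their window under or touching a peak. CACGTG was present on 49 of these windows, 16.6% (12.5 to 21.4), against 7.84% of all 21263 listed starts and 5.78% of starts with no ESC PCGF6 peak. The E2F motif was present on 45 windows, 15.3% (11.3 to 19.9), against 5.95% of all starts. Only 5 windows held both (1.69%, against 0.597% of all starts). ESC-only peaks with RING1B had lower shares of both, 10.3% (8.27 to 12.7) for the E-box and 9.16% (7.21 to 11.4) for E2F. The crypt-shared peaks without RING1B had 19.03% (17.26 to 20.90) and 12.45% (10.98 to 14.05). Those with RING1B had similar shares, 18.3% (16.0 to 20.8) and 12.5% (10.5 to 14.7), so the shares did not follow RING1B alone. The T-box motif (TCACACC, or GGTGTGA on the other strand) lay in 8 windows, 2.71%, beside 3.68% of all starts. The windows under these peaks were rich in CpG, with a median of 20 against 13 for all starts. Among starts with 15 or more CpG, the E-box share was 16.3% (11.5 to 22.0) against 11.4% of all such starts, and the E2F share 15.8% (11.1 to 21.4) against 10.4%. At ESC PCGF6 scores of 20 or more, the E-box share was 20.5% (12.4 to 30.8), beside 20.3% of all starts under ESC PCGF6 peaks of that score. The E2F share was 18.1% (10.5 to 28.0), beside 13.6%. No motif contains another, and both strands were searched. A match describes the letters of the window and was not tied to binding.

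ESC-only peaks without RING1B were the weakest and narrowest of the 4 kinds of ESC PCGF6 peak. Their median score was 14.04 (quartiles 11.8 and 19.5, highest 151), against 17.2 for ESC-only peaks with RING1B, 17.3 for crypt-shared peaks without it and 25.5 for crypt-shared peaks with it. A score of 20 or more was reached by 409 of them (24.0%) and a score of 50 or more by 31. Their median width was 584 bp, against 894, 667 and 1023 bp. A narrow peak meets a rule of no 1 bp overlap more easily, and the rule's part in this was not tested. The median distance was 103505 bp to the nearest ESC RING1B peak and 39561 bp to the nearest crypt PCGF6 peak, with 18 and 37 peaks within 1 kb. Overlapping peaks were removed by the rule and no background distance was computed, so these distances only describe the peaks. Closest inside the rule were a peak at Cadm2, 175 bp from a RING1B peak, one away from genes, 23 bp from a crypt PCGF6 peak (chr1:171329227-171329607), and one at Tgfbr1, 59 bp from one. Just outside it were a peak at Tac1, overlapping RING1B by 14 bp, and one at Atp6v0e2, overlapping crypt PCGF6 by 8 bp.

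Fewer of these peaks lay at gene ends than of the other kinds. Within 1 kb of either end of a protein-coding gene were 432 of them, 25.4% (23.3 to 27.5), against 58.1% of all ESC PCGF6 peaks. The shares were 59.0% (56.8 to 61.2) for ESC-only peaks with RING1B, 69.4% (67.6 to 71.2) for crypt-shared peaks without RING1B and 73.5% (71.2 to 75.6) for crypt-shared peaks with it. A further 579 (34.0%) lay inside a gene more than 1 kb from its ends, 158 (9.29%) outside genes within 10 kb, and 532 (31.3%) outside genes beyond 10 kb. Counting inside and outside together, 844 (49.6%) were more than 10 kb from any gene end, where the other kinds had 14.7%, 13.9% and 9.41%. The median distance to a gene end was 9811 bp, against 452.5 bp for ESC-only peaks with RING1B and 0 bp for both crypt-shared kinds. Of the 1656 peaks outside chromosome 18, for which no start sites were listed, 322 (19.4%) were within 1 kb of a listed protein-coding start and another 67 within 1 kb of a lncRNA start only. Both the window and the score limit moved the share at genes: it was 40.0% within 5 kb, and with all lists limited to scores of 20 or more, 816 peaks met the rule and 44.2% were within 1 kb, against 63.7% of all ESC PCGF6 peaks at that score.

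**Figure D1:**
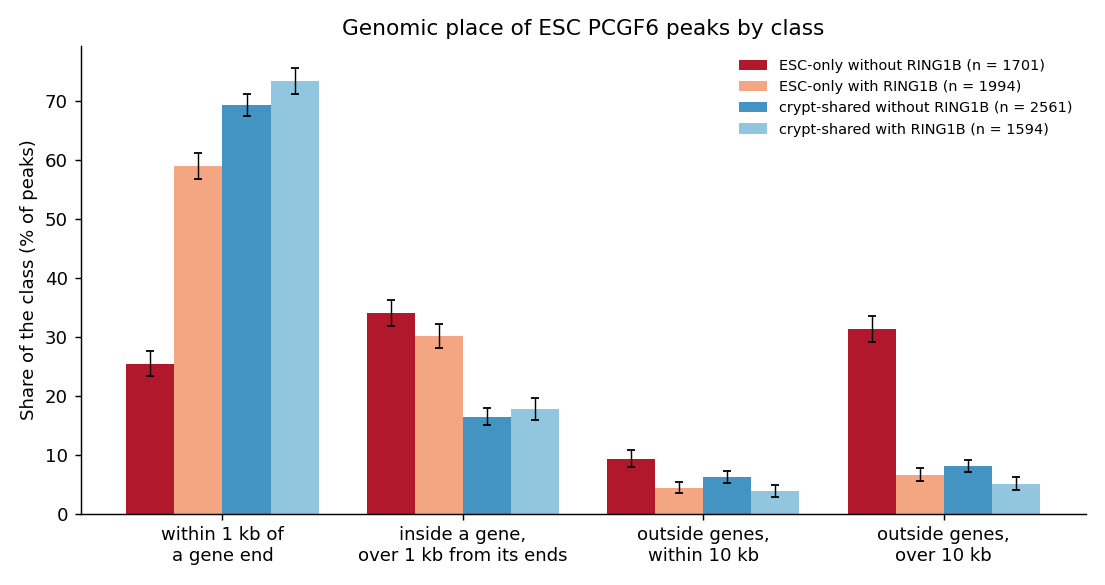
Share of each kind of ESC PCGF6 peak (y axis, percent of peaks) by place relative to protein-coding genes (x axis). Bars are shares of 1 library's peaks and error bars exact 95% intervals; the ESC-only peaks without RING1B stand at 25.4% within 1 kb of a gene end and at 31.3% outside genes beyond 10 kb.

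The low share at genes was seen at every level of peak score. The rule had removed peaks overlapping ESC RING1B or crypt PCGF6, most of which lay within 1 kb of a gene end. Its part in the low share was not tested, and grouping by score does not remove it. All ESC PCGF6 peaks were divided into 5 groups of equal size by score, and in the lowest group 23.0% of the ESC-only peaks without RING1B were within 1 kb of a gene end, against 70.7% of crypt-shared peaks without RING1B. In the highest group, with scores from 31.8, the shares were 29.2% (106 peaks) and 66.7%. The intervals of these 2 kinds did not overlap in any of the 5 groups. Pseudogenes were overlapped by 72 of the ESC-only peaks without RING1B, 4.23% (3.33 to 5.30), against 1.77% of all ESC PCGF6 peaks and 1.91%, 0.547% and 0.941% of the other kinds. How reads with several matches in the genome were treated was not given in the sources used here, so peaks at pseudogenes and multi-copy families may share reads with other copies.

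**Figure D2:**
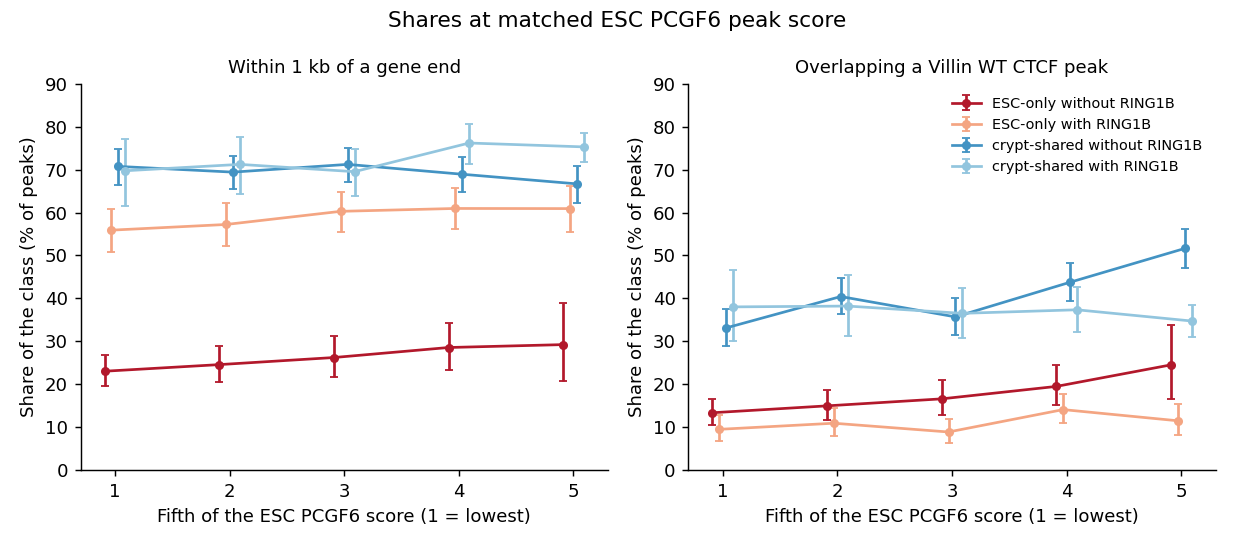
Share of each kind of peak (y axes, percent) within 1 kb of a gene end (left) and overlapping a Villin WT CTCF peak (right), in 5 groups of ESC PCGF6 score (x axes). Points are shares with exact 95% intervals; the ESC-only peaks without RING1B run from 23.0% to 29.2% at gene ends and from 13.4% to 24.5% at CTCF.

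Chromosome 11 held 318 of the peaks, 18.7%, while it holds 7.35% of protein-coding genes. The share on chromosome 11 was 13.0%, 16.4% and 10.9% for the other kinds and 14.9% for the whole ESC PCGF6 list. The ESC RING1B list had 8.42% of its peaks there and the AhCre WT PCGF6 list 8.45%. Of the 15 megabases with the most ESC-only peaks without RING1B, 13 lay on chromosome 11, led by 11 peaks in chr11:3000001-4000000. Median scores were alike on and off it, 13.97 and 14.10. Chromosome 6 followed with 131 peaks (7.70%, against 5.14% of genes). Copy number of the cells was not measured, and its part in this was not tested. Without chromosome 11, 24.7% of the remaining 1383 peaks were within 1 kb of a gene end and 75.5% were in none of the WT crypt lists described below, so those results did not rest on it.

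**Figure D3:**
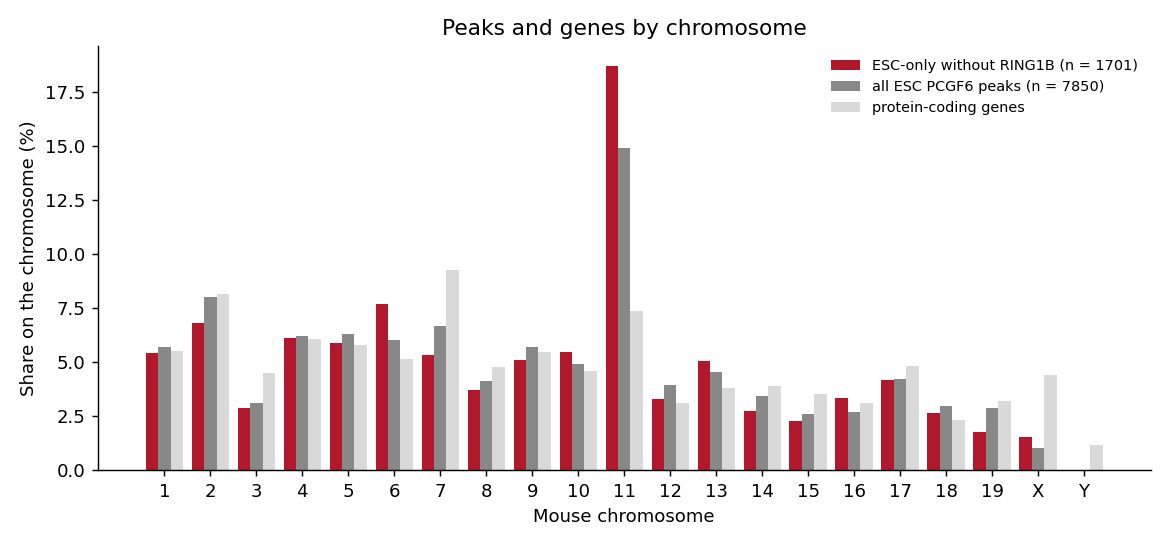
Share of ESC-only peaks without RING1B, of all ESC PCGF6 peaks and of protein-coding genes (y axis, percent) on each mouse chromosome (x axis). Chromosome 11 holds 18.7% of the peaks and 7.35% of the genes.

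In all, 470 protein-coding genes, 2.15% of 21887, had an ESC-only peak without RING1B within 1 kb of an end, and 22.7% had any ESC PCGF6 peak there. Another kind of ESC PCGF6 peak was also present at 40 of the 470, and 58 had a PCGF6 peak of AhCre WT crypts elsewhere within the same window. The strongest peak at a gene lay at Lsm8 (score 151; chr6:18848016-18849201), a subunit of the ring that binds U6 snRNA. Next came the peak at the start of Patl2, which also reaches an end of Terb2 (88.3, chr2:122185463-122186888). Terb2 encodes a protein that ties meiotic telomeres to the nuclear envelope, and whether this end is its start was not listed. Pramel1, of the PRAME family, followed (80.1), then Rpl10l (76.1), Rbmxl2 (73.5), St7 (69.5), Aard (65.2) and Prrg3 (64.4). The remaining 12 of the 20 strongest peaks at genes were at Gm9631, Fbxo48, Galc, Vstm2l, Spata31d1d, Tdrd9, Elobl, Tbc1d32, Ccdc40, Ttc9b, Tuba3b and Zeb1, with scores from 48.7 down to 37.9. Ccdc40 and Tbc1d32 encode cilium assembly factors and Zeb1 a repressor of epithelial genes. Among these 20, 14 covered or neighboured a listed start and 17 were in no WT crypt list, as were 272 (63.0%) of the 432 peaks at genes. Several of them (Pramel1, Rpl10l, Tuba3b, Spata31d1d and Elobl) belong to families with close copies, where the assignment of reads is uncertain.

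Of the 10 strongest peaks of all, 7 were more than 1 kb from a gene end. One lay inside Asb4 (score 141; chr6:5423079-5424108), one inside St7, 101702 bp from its nearest end (124; chr6:17840012-17841321), and one inside Plekhm2 (101; chr4:141628406-141629887). The strongest peak outside genes and beyond 10 kb lay 38315 bp from Peli1 (104; chr11:21188642-21189628). Others of this kind were 14493 bp from Zfp984, over a pseudogene (77.4), 164581 bp from Zfp637 (76.0) and 19998 bp from Hbq1a (62.8), an alpha-globin family gene. Peaks beyond 10 kb had a median score of 13.8 and those within 1 kb of a gene end 14.5. In 19.05% of cases another ESC-only peak without RING1B lay within 50 kb, against 32.0%, 27.7% and 21.6% for the other kinds, each counted among themselves and with its own number of peaks.

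Germ cell and meiosis genes gave the highest count of the 30 lists, which differ in size, though not the highest share. The 30 lists were chosen with earlier results of these data known, so their shares are descriptions and no test. Of a list of 70, 10 had an ESC-only peak without RING1B, 14.3% (7.07 to 24.7) beside 2.15% of all protein-coding genes. They were Terb2 (88.3), Rpl10l (76.1), Tdrd9 (46.2), Tuba3b (38.0), a testis tubulin, Asz1 (34.8), a piRNA pathway protein, Figla (30.3), an oocyte transcription factor, Sohlh2 (26.99), a germ cell transcription factor, Tex101 (23.2), a sperm surface protein, Mei4 (21.6), a factor for meiotic DNA breaks, and Tex15 (19.7), needed for meiosis and transposon silencing. Their median score was 32.6, above the 14.04 of all peaks of the kind. Stronger peaks stood at list genes of the kinds with RING1B. The highest score per gene ran from 32.3 (Tdrd5) to 514 (Tex19.1) for ESC-only peaks with RING1B. It ran from 14.1 (Mei1) to 528 (Zcwpw1) for crypt-shared peaks with RING1B. For crypt-shared peaks without RING1B it ran from 18.2 (Mlh3) to 45.7 (Tex14), and from 19.7 to 88.3 here. At 8 of the 10 the peak was at a listed start, and 0 of the 10 peaks overlapped a peak of the WT crypt lists of RING1B, H2AK119ub1, CTCF or RAD21, where 63.0% of all ESC-only peaks without RING1B within 1 kb of a gene end overlapped none. None of the 10 genes had another kind of ESC PCGF6 peak. Terb2 alone had a PCGF6 peak of AhCre WT crypts elsewhere within 1 kb of an end. Of the same 70 genes, 25 had an ESC-only peak with RING1B, 3 a crypt-shared peak without it and 11 a crypt-shared peak with it, so 47 had at least 1 ESC PCGF6 peak. With all lists limited to scores of 20 or more, 18 of the 70 had an ESC-only peak without RING1B, beside 411 of all 21887 protein-coding genes.

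The other lists gave few genes each, and at the 2.15% of all protein-coding genes that have such a peak, a count of 0 in lists of these sizes is not far from the background. The rule also removed peaks overlapping ESC RING1B or crypt PCGF6, so the contrasts with the other kinds follow in part from it. The share of all genes with a peak of each other kind is not given here. Of 14 PRC1.6 genes, 0 had an ESC-only peak without RING1B, while 4 had a crypt-shared peak without RING1B and 5 one with it. Of 13 PRC2 genes 2 had one, 15.4% (1.92 to 45.4): Ezhip (22.0), an inhibitor of PRC2, and Epop (19.9), which links PRC2 to elongins. Of 23 other PRC1 genes Scmh1 (12.1) had one. The 39 Hox genes and 121 developmental transcription factors had 0, against 17 and 79 with an ESC-only peak with RING1B. All 39 Hox genes had an ESC RING1B peak. E2F targets (56 genes), MYC and ribosome biogenesis genes (44), spliceosome genes (39) and tRNA synthetases (37) also had 0, against 18, 17, 12 and 7 with a crypt-shared peak without RING1B. Of 33 pluripotency genes, Klf5 (13.8) and Sall4 (11.2), both transcription factors of ESC, had one, and of 19 genes of the 2-cell stage 0 did. The 4 clustered protocadherins (of 57) were Pcdhb8 (35.6), Pcdhga8 (12.8), Pcdhga1 (12.1) and Pcdha4 (11.9), adhesion proteins of neurons. Psma8 (33.9), the proteasome subunit of spermatocytes, and Psmd11 (10.5) were the 2 of 39 proteasome genes.

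**Figure D4:**
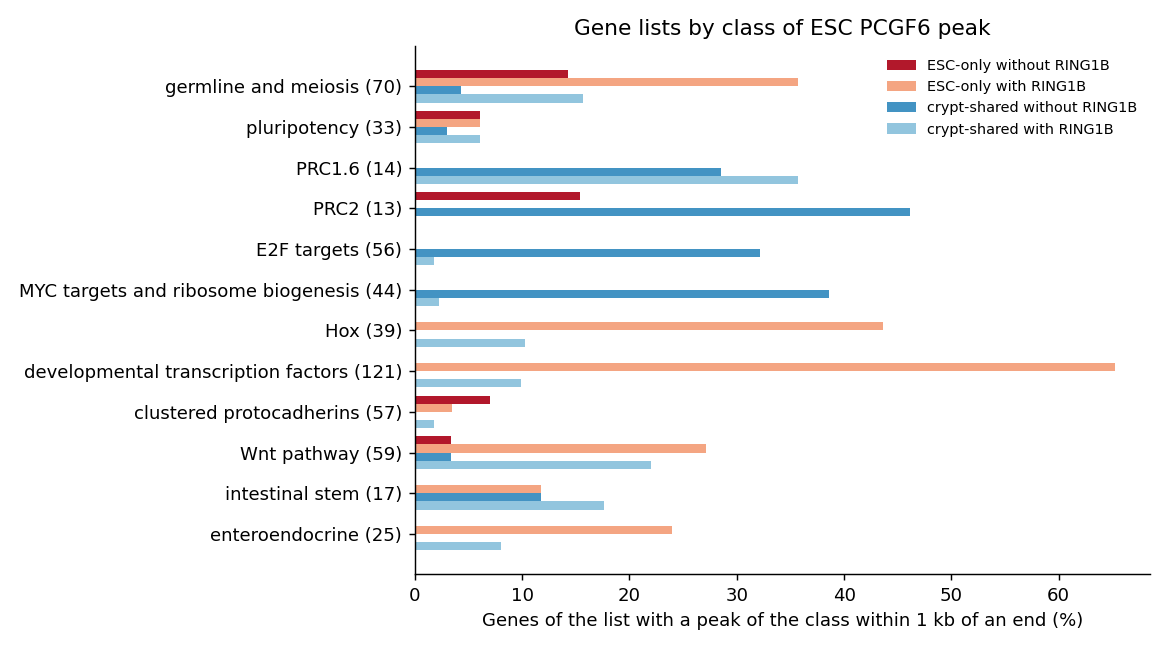
Share of the genes of 12 lists (y axis, number of genes in brackets) that have each kind of ESC PCGF6 peak within 1 kb of an end (x axis, percent). The ESC-only peaks without RING1B reach 10 of 70 germline genes and 0 of the Hox, PRC1.6 and E2F target genes. Their rule removed peaks overlapping ESC RING1B or crypt PCGF6, so contrasts with the other kinds follow in part from it.

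The lists of intestinal and other gut cell genes also gave few genes, to be read against the 2.15% of all genes. The 6 lists of intestinal stem, enterocyte, goblet, Paneth, enteroendocrine and tuft cell genes hold 114 genes, and 0 of them had an ESC-only peak without RING1B within 1 kb. Of 59 Wnt pathway genes, which act in crypt renewal, Tcf7 (24.5), a TCF transcription factor, and Sfrp4 (13.4), a secreted Wnt antagonist, had one. Among genes of other cells in the gut wall, Col1a2 (24.97), a collagen of fibroblasts, and the lymphocyte genes Cd4 (14.6) and Cd79b (10.1) had one. Histone genes gave 3 of 75 (H1f0, H3c14 and H1f10, scores 14.4, 14.1 and 10.1). Of 394 Zfp genes 6 had one, led by Zfp524 (26.1) and Zfp454 (23.2), and of 1110 olfactory receptor genes 3 did, led by Olfr315 (22.0). Mitochondrial ribosomal genes gave Mrpl14 (13.9) and Mrpl1 (11.3) of 77, and the respiratory chain Ndufa1 (12.1) of 80. Of the 30 lists in all, 15 had 0 genes with such a peak.

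In WT crypts most of these sites carried no listed peak of any antibody. Of the 1701 peaks, 1275 (74.96%) overlapped none of the 6 WT crypt lists outside the rule, against 39.7% of all ESC PCGF6 peaks. A single list covered 215, 144 were in 2 lists, 33 in 3, 27 in 4, 4 in 5 and 3 in all 6. Peaks more than 10 kb from a gene end were in none of the lists in 701 of 844 cases (83.1%), and those within 1 kb in 272 of 432 (63.0%).

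RING1B was rare at these sites in the crypt. The AhCre WT RING1B list covered 37, 2.18% (1.54 to 2.99), against 17.4% of all ESC PCGF6 peaks, and the Villin WT list 50, 2.94% (2.19 to 3.86), against 29.9%. Both lines shared 24. The crypt-shared peaks without RING1B, which lack ESC RING1B too, had 8.71% (7.64 to 9.87) and 25.6%. H2AK119ub1, the mark RING1B places, was listed at 147 sites in AhCre WT crypts, 8.64% (7.35 to 10.1), against 25.2% of all ESC PCGF6 peaks, and at 88 in Villin WT crypts, 5.17% (4.17 to 6.34), against 20.3%. These shares were close to the 8.24% and 5.12% of crypt-shared peaks without RING1B, and below the 48.2% and 41.2% of ESC-only peaks with RING1B. In both lines 75 sites had the mark, and 53 had it in all 4 WT and KO lists. With all lists limited to scores of 20 or more, the shares fell to 0.980% and 1.23% for RING1B and to 4.41% and 1.72% for the mark (AhCre and Villin). This limit dropped most peaks of these crypt lists, whose median scores were 16.3 and 14.7 for RING1B and 13.9 and 13.2 for the mark. The shares of all ESC PCGF6 peaks were not computed at it, so the fall has no background beside it.

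**Figure D5:**
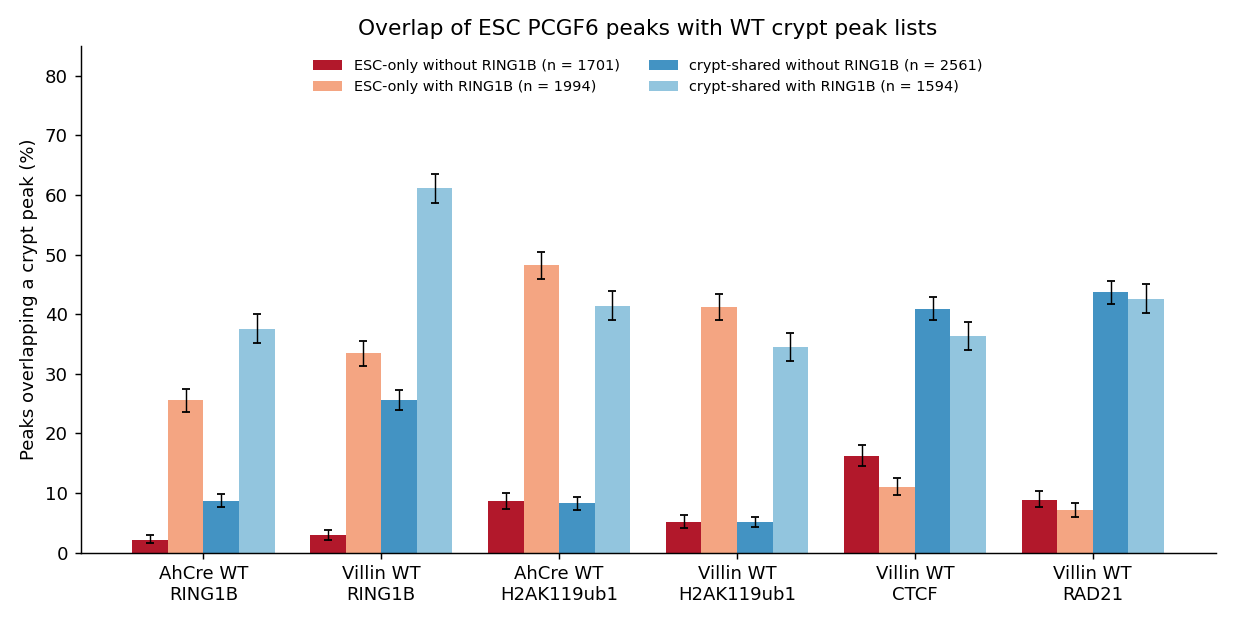
Share of each kind of ESC PCGF6 peak (y axis, percent) that overlaps a peak of each WT crypt list outside the rule (x axis). Bars are shares and error bars exact 95% intervals; ESC-only peaks without RING1B are at 2.18% and 2.94% for RING1B and at 16.2% for CTCF.

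CTCF was the most frequent crypt protein at these sites, and its list was also the largest. It holds 32651 WT peaks, against 20653 for RAD21 and 2368 and 4403 for RING1B (AhCre and Villin). The Villin WT CTCF list covered 275, 16.2% (14.448 to 18.004), against 27% of all ESC PCGF6 peaks, 10.98% of ESC-only peaks with RING1B and 40.9% of crypt-shared peaks without RING1B. In the lowest and highest of the 5 score groups the share was 13.4% (10.6 to 16.6) and 24.5% (16.7 to 33.8). ESC-only peaks with RING1B had 9.52% and 11.5% there. Crypt-shared peaks had 33.1% and 51.6% without RING1B, and 38.0% and 34.7% with it. Peak centres were a median of 137.5 bp apart, and 176 of the 275 (64%) were within 200 bp. RAD21 was listed at 151 sites, 8.88% (7.57 to 10.3), against 26.6% of all ESC PCGF6 peaks, and 127 sites had both. RAD21 thus accompanied CTCF at 46.2% of these sites, beside 54.7% of all CTCF peaks of the list. Of the CTCF sites, 41.5% were more than 10 kb from a gene end. The highest-scoring ESC peak with CTCF (score 112; chr15:82259314-82259968), 8834 bp from an end of Septin3, had CTCF at 93.1 and H2AK119ub1 at 21.5 in AhCre and 11.2 in Villin WT crypts. A peak 8562 bp from Ccdc60 (86.4; chr5:116116405-116117019) had CTCF at 166 and no other WT crypt peak.

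A few sites carried many crypt peaks. The ESC peak at an end of Notum (score 37.1, chr11:120659706-120661357), a secreted enzyme that inactivates Wnt ligands, overlapped all 6 lists. This ESC peak lay only 289 bp from an AhCre WT PCGF6 peak. Crypt scores there were 25.1 and 25.8 for RING1B, 30.0 and 21.5 for H2AK119ub1 (AhCre and Villin), 177 for CTCF and 13.9 for RAD21. Gli2, a transcription factor of Hedgehog signalling, had a weaker ESC peak (12.3; chr1:119053667-119054305) and all 6 as well, with RING1B at 12.8 and 18.2. The third peak in all 6 lay inside Cmtm3, 1355 bp from its nearest end (10.4). The peak at Sh3pxd2a (15.5) was in 5 lists. The highest crypt RING1B scores were at the ESC peak of Igf2bp1 (35.5; chr11:96004541-96007866), an oncofetal RNA-binding protein, with 437 in AhCre and 419 in Villin crypts and no CTCF or RAD21 peak. At Tcf7 the crypt lists gave H2AK119ub1 at 28.3 and 19.2 and RING1B at 21.9 in Villin. The Tcf7 peak also stood near the edge of the rule, 353 bp from an AhCre WT PCGF6 peak and 741 bp from an ESC RING1B peak. Epop had RING1B at 21.0 and 33.8 with H2AK119ub1 at 45.8 and 29.0.

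In KO crypts most WT CTCF and H2AK119ub1 peaks at these sites had a match. The AhCre WT PCGF6 list holds 17163 peaks and the KO list 4779, and the rule removed overlap with the first only. The KO PCGF6 list covered 2 of the 1701 sites (0.118%, against 25% of all ESC PCGF6 peaks), inside Rapgef5 (score 11.1 in the KO list) and at Xist and Tsix (18.1). The KO list covered 1 of the 1994 ESC-only peaks with RING1B, but 52.1% and 39.3% of crypt-shared peaks without and with RING1B. The low share therefore follows largely from the rule, which removed the crypt-shared peaks, and is no finding. The crypt PCGF6 peaks thus offer no site for comparing PCGF6 loss here. RING1B was listed at 22 sites in AhCre KO crypts (1.29%, against 11.9% of all ESC PCGF6 peaks) and at 33 in Villin KO crypts (1.94%, against 16.4%). Of the 37 AhCre WT RING1B peaks at these sites, 20 overlapped a KO peak, 54.1% (36.9 to 70.5), beside 56.2% of all WT peaks of the list. For the Villin line it was 24 of 50, 48% (33.7 to 62.6), beside 44.9%. Where both genotypes had a RING1B peak, its score was lower in KO at 16 of 20 sites in AhCre and 24 of 25 in Villin crypts, beside 75.4% and 82.4% of all such ESC PCGF6 peaks. At Igf2bp1 the RING1B scores were 305 in AhCre KO and 218 in Villin KO, and at Notum 14.1 and 12.5, each below the WT score of its line. At Sall4 the AhCre score was 11.5 in WT and 15.1 in KO, and at Sh3pxd2a a RING1B peak was listed in AhCre KO (12.4) and not in AhCre WT crypts. Scores of different libraries also differ with depth.

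H2AK119ub1 was listed at 170 sites in AhCre KO crypts (9.99%, against 27% of all ESC PCGF6 peaks) and at 78 in Villin KO crypts (4.59%, against 16.6%). Of 147 AhCre WT H2AK119ub1 peaks at these sites, 125 overlapped a KO peak, 85.03% (78.2 to 90.4), beside 69.2% of the whole list, and in Villin 61 of 90, 67.8% (57.1 to 77.2), beside 54.8%. In AhCre those at the sites were also stronger and wider than the list, with medians of 17.4 against 13.9 for score and 1927 against 1428 bp for width; the part of this in the overlap was not tested. Of the KO peaks at the sites, 45 of 172 in AhCre and 19 of 82 in Villin had no WT match, beside 41.3% and 33.8% of the whole KO lists. The AhCre KO H2AK119ub1 list stood apart: 12.2% of its peaks were on chromosome X, against 0.220% in AhCre WT and 2.81% and 2.44% in the Villin lists. Of the ESC-only peaks without RING1B on X, 5 had the AhCre KO mark and 0 the AhCre WT mark. Without chromosome X the AhCre shares were 8.78% in WT and 9.85% in KO, and the Villin shares 5.13% and 4.60%.

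CTCF was listed at 266 sites in KO crypts (15.6%, against 23.9% of all ESC PCGF6 peaks). Of 276 WT CTCF peaks at the sites, 258 had a KO match, 93.5% (89.9 to 96.1), beside 90.8% of all. RAD21 was listed at 107 sites in KO crypts (6.29%, against 16.2%), and 105 of 152 WT peaks had a match, 69.1% (61.1 to 76.3), beside 75.6% of all RAD21 peaks. Both intervals hold the value of the whole list, and a difference from it was not detectable at these counts. KO peaks with no WT match numbered 10 of 266 for CTCF and 3 of 108 for RAD21, beside 7.68% and 11.5% of the whole KO lists.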

How the data were processed

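Peak lists of 16 ChIP-seq libraries were used, with 1 library each and no replicate; 6 inputs come without a list. The submitters' processing notes name MACS2 2.1.1 and Bowtie (1.1.2, 1.2.2), with mm10, hg38 and dm6 as builds and no role for each; the peaks' positions are on mm10. The deposited score is the −log10 of a p or a q as the authors' caller wrote it for a peak, and none was below 10. Which of them it is could not be told from the sources. Spike counts were not used. For ESC, 1 description line swaps PCGF6 and RING1B; titles and antibody tags were followed, and the list titled RING1B had a peak at all 39 Hox genes, the PCGF6 list at 21.

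Overlap meant at least 1 bp. Positions were made 1-based. The GRCm38.p6 table lists 21887 protein-coding genes without strand, so 1 kb around either gene end was used. Listed starts covered 17492 of them (79.9%) and none on chromosome 18. A listed start counted as under a peak when its 300-base window overlapped it. Shares have exact Clopper-Pearson 95% intervals. No test was made, since each group is 1 library. Overlap counts were checked against bedtools 2.31.1 and differed by 0, and all 200 peaks planted as unmatched in a simulated list were found. Named peaks were the 20 strongest within 1 kb of a gene end, the 5 strongest beyond 10 kb, the 5 strongest in each WT crypt list, up to 5 in most crypt lists, the closest to the rule's edge, and members of the 30 gene lists; not all are printed. The peaks and lists were chosen with earlier results of these data known. The T-box motif, the CpG subset and the values without chromosomes 11 and X were added after seeing the data. Tools were scipy 1.17.1, pandas 2.3.3, numpy 2.4.6 and matplotlib 3.10.9 in Python 3.11.15.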

Additional observations from a re-analysis of the deposited data

Results flagged for a closer look

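The share of ESC-only peaks without RING1B that overlapped H2AK119ub1 moved in opposite directions between WT and KO in the 2 Cre lines. It rose by 1.35 percentage points in AhCre crypts and fell by 0.588 percentage points in Villin crypts, with 1 library in each group. The intervals of WT and KO overlapped in both lines (7.35 to 10.1 and 8.61 to 11.5 in AhCre, 4.17 to 6.34 and 3.64 to 5.69 in Villin). All ESC PCGF6 peaks moved the same way, from 25.2% to 27% in AhCre and from 20.3% to 16.6% in Villin, so the pattern is not particular to these sites. The difference between the lines was not tested. The AhCre KO library is the one with 12.2% of its peaks on chromosome X.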

How the results depend on the processing

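Of 71 recomputed main values, 50 stayed within 1.5 times (counts) or inside the interval (shares), and 21 moved. Requiring that at least 50% of the ESC peak be covered moved the gene-end share to 28.5%, AhCre WT H2AK119ub1 to 7.06%, Villin WT H2AK119ub1 to 4.15% and CTCF to 13.8%. ESC PCGF6 scores of 20 or more left 409 peaks and 125 genes, with 28.1% at gene ends, 20.8% at CTCF and 7.09% at RAD21. Of all ESC PCGF6 peaks at that score, 63.7% were at gene ends, 31.7% at CTCF and 30.1% at RAD21. With all lists at 20 or more, weaker RING1B and crypt peaks no longer removed sites, and 816 peaks qualified. Their gene-end share was 44.2%, with 18 germline genes among 411 genes. They had 0.980% and 1.23% at RING1B and 4.41% and 1.72% at H2AK119ub1 (AhCre and Villin WT), and 19.6% at CTCF. Crypt shares of all ESC PCGF6 peaks were not computed at this setting. A window of 5 kb gave 819 genes and 40.0%, and all genes of the table gave 36.2%. Without chromosome 11, a setting added later, AhCre WT H2AK119ub1 was 7.30%. No paired analysis was possible because each group has 1 library. Peaks below a score of 10 are in no list, and the depth is unknown.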
